A study of Mus musculus with 7 samples.

Results

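Non-collagen proteins of the extracellular matrix were followed in the livers of miR-122 knockout and wild-type mice. The set has 50 listed genes, and 47 of them were measured by a probe set that carries their symbol alone. Fbn1 and Efemp2 were not analysed here, and Loxl2 lay on 2 probe sets that another gene shares, so these were not used. The knockout group (KO) held 4 livers, here called KO-03, KO-90, KO-91 and, last, KO-94, and the wild-type group (WT) held 3, here called WT-27, WT-103 and, last, WT-104. Each animal had 1 Affymetrix array, and 18193 genes were tested in all. Both genotypes shared a B6/129 strain background and an age of 2 months, and no treatment is named for either. The labels do not say how the allele was made, and they name no sex, litter or diet. No probe set used here reads miR-122, so the genotypes rest on the labels.

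The extracellular matrix of the liver lies mainly in the portal tracts, around the central veins and, as a sparse layer, in the space between hepatocytes and sinusoidal endothelium. Small leucine-rich proteoglycans bind collagen fibrils, elastin with its microfibrillar and fibulin partners forms elastic fibres, lysyl oxidases cross-link both networks, and laminins, nidogens and perlecan build basement membranes. Stellate cells and portal fibroblasts are known as the main makers of fibrillar matrix, while hepatocytes secrete plasma fibronectin. The deleted microRNA, miR-122, is made mainly by hepatocytes and is very abundant there.

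In KO livers, 13 of the 47 measured matrix genes rose and 0 fell, at an adjusted p under 0.05 in a limma fit over all genes with Benjamini-Hochberg adjustment. That is 27.7% of the members, where 2.58% of all genes rose, 0.951% fell and 3.53% did either. The members were chosen with earlier results of these data known, so the shares given here describe the set and do not test it. The 13 were Lum, Dcn, Bgn, Sparc, Sparcl1, Fbln5, Mfap4, Emilin1, Ltbp3, Loxl1, Nid1, Lama2 and Lamb1. The median difference of the 47 members was 0.50 on the log2 scale, KO minus WT, beside 0.01 over all genes. Differences were positive for 40 of the 47 (85.1%), against 52.5% of all genes. Every KO array lay above every WT array for 24 members (51.1%), against 9.15% of all genes (15.8% with either direction). For 0 members did every KO array lie below every WT array, against 6.62% of all genes. Of the 34 members that did not pass, 11 were at or under the highest control probe set on all 7 arrays. Of the rest, 8 were above it on some arrays and 15 on all. In bulk liver RNA a change in the number of cells of a type and a change in RNA per cell cannot be told apart.

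**Figure D1:**
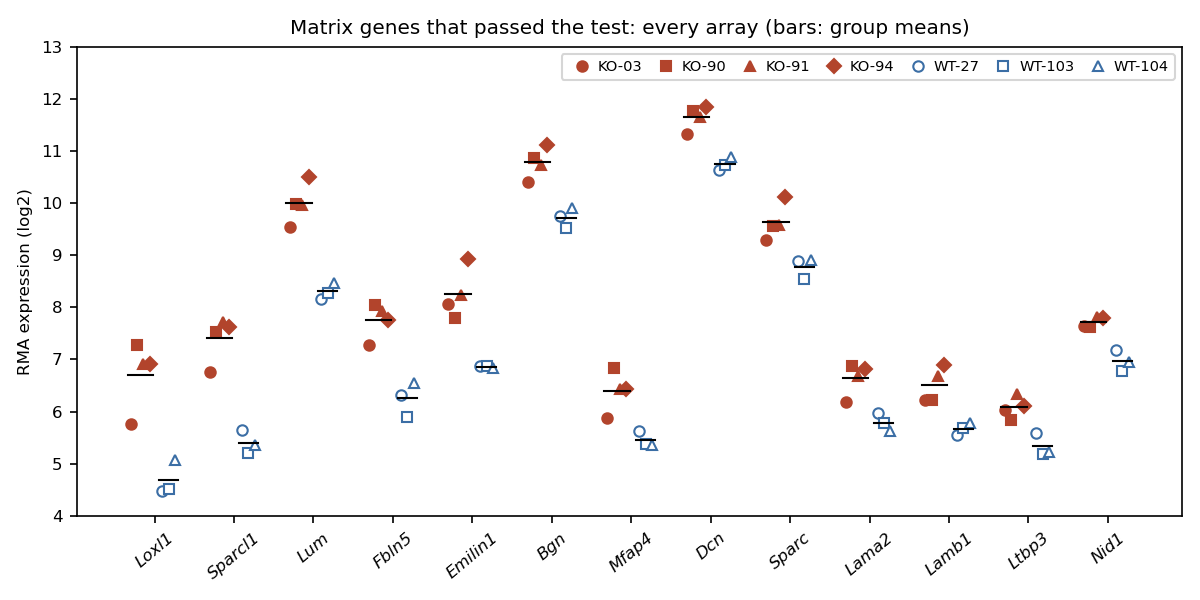
RMA expression (log2) of the 13 matrix genes that passed the test, on every array, with filled symbols for the 4 KO livers, open symbols for the 3 WT livers and a bar at each group mean. For each of the 13 genes the lowest KO array lies above the highest WT array, and KO-03 is the lowest KO array for 10 of them.

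The arrays were not equally spread. Across all genes, 470 rose and 173 fell in KO livers, and 2981 genes had an unadjusted p under 0.05. Centring each array on its median gave 384 that rose and 288 that fell, with 11 members that rose and 0 that fell, and Mfap4 and Ltbp3 then had a limma adjusted p of 0.0503 and 0.0695. The leading principal component, with 48.6% of the variance, placed KO-03 at -1.32 and the other KO arrays between 15.8 and 42.5, with the WT arrays between -32.3 and -20.1. KO-03 was thus the KO liver nearest to the WT livers, and results are given with and without it where it matters. Without KO-03, 17 members rose, with the same 13 among them. The control level, used here as a floor, ran between 4.71 and 5.23 over the 7 arrays. It was the highest of 27 bacterial control probe sets, and the same probe set gave it on every array. The median of those controls lay between 2.86 and 3.14. The median of all probe sets, between 4.65 and 4.72, also lay under the control level on every array. A value under that level may thus still hold signal. The p-values set the difference between groups against the spread among animals within a group, which the fit draws toward a value shared by all genes. With only 7 animals the precision is limited.

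For 8 of the 13 genes that rose, a promoter sequence was at hand, in 9 windows that cover the 250 bases before an annotated start (RefSeq, build GRCm38.p6). Those of the 3 genes with the largest differences among the 8 are shown, as the strongest risers that have one. A set of 5 motifs was searched on both strands: the TATA box (TATAAA), the GC box (GGGCGG), an AP-1 site (TGANTCA), a TEAD site (GGAATG) and the CCAAT box (CCAAT). Capitals mark every match. The Fbln5 window lies at chr12:101819120-101819369 on the minus strand, before the more upstream of its 2 annotated starts. The Emilin1 window lies at chr5:30913536-30913785 on the plus strand, and the Bgn window at chrX:73483351-73483600 on the plus strand.
Fbln5: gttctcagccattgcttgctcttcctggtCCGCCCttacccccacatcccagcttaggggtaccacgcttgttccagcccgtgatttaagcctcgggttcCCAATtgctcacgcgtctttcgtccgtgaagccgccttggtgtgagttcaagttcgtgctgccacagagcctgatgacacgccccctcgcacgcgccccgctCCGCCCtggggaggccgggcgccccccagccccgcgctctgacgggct
Emilin1: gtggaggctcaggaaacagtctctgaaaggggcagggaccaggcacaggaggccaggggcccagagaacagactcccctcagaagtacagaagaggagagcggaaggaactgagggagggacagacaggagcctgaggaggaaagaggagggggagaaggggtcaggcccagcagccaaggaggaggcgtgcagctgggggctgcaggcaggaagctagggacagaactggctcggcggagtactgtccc
Bgn: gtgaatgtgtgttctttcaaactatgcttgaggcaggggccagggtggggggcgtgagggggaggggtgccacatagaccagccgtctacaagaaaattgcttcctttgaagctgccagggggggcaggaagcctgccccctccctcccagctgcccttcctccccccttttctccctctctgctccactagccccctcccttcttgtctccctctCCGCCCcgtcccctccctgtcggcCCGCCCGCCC
The Fbln5 window holds 2 GC boxes and 1 CCAAT box, the Bgn window holds 3 GC boxes, of which a pair overlaps, and the Emilin1 window holds none of the motifs. G and C made up 65.2% of the Fbln5 window, 63.2% of the Emilin1 window and 64.4% of the Bgn window, against a median of 52.4% over 32851 windows of the same length. In the windows not shown the share was 64.4% for Nid1, 62.0% for Lamb1 and 54.0% for Sparc. It was 49.6% for the second Fbln5 window, 47.2% for Ltbp3 and 47.2% for Lama2, all under that median. A GC box was found in 4 of the 9 windows, against 32.7% of all windows, and a CCAAT box in 3 of the 9, against 33.8%. A TEAD site stood in 1 of the 9, before Nid1, against 12.6% of all windows. The TATA box and the AP-1 site were in 0 of the 9 windows, against 12.4% and 6.75% of all windows. These matches describe the letters of the windows and nothing of what binds there.

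Of the 8 small leucine-rich proteoglycans, which coat collagen fibrils and set their spacing, 3 rose, 0 fell and 5 did not pass, with a median difference of 0.82. Array values follow in log2 units, by rising number of the animal within KO and then within WT, and differences are KO minus WT with their SE. Lumican (Lum), a keratan sulfate proteoglycan that binds fibrillar collagen, read 9.55, 9.98, 9.96 and 10.50 in KO livers, against 8.17, 8.28 and 8.48 in WT livers. The groups stood far apart, with KO-94 highest and KO-03 lowest of the KO livers. The difference of Lum was 1.69 ± 0.20 (SE, n = 4 KO and 3 WT livers), or 3.23-fold (limma adjusted p = 0.00354). Biglycan (Bgn), a proteoglycan that binds collagen and growth factors, had 10.41, 10.87, 10.74 and 11.12 in KO livers, against 9.75, 9.52 and 9.90 in WT livers. Its KO values again began above the highest WT value, and the difference was 1.06 ± 0.17, or 2.09-fold (limma adjusted p = 0.0149). For decorin (Dcn), which binds collagen and TGF-beta, the values were 11.33, 11.77, 11.65 and 11.85 in KO livers, against 10.64, 10.74 and 10.88 in WT livers. Here too KO-03 was the lowest KO liver and no value overlapped, with a difference of 0.90 ± 0.14, or 1.86-fold (limma adjusted p = 0.0135).

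Prelp, a leucine-rich proteoglycan of basement membrane borders, came nearest to the threshold without passing it. It read 9.04, 9.70, 9.34 and 9.58 in KO livers, against 8.89, 8.40 and 8.66 in WT livers, a difference of 0.77 ± 0.18 (limma adjusted p = 0.0573). Its groups did not overlap, though KO-03 lay only just above WT-27. Aspn (asporin), which also binds collagen, had 3.15, 3.52, 3.22 and 3.54 in KO livers, against 2.98, 2.98 and 2.98 in WT livers, a difference of 0.38 ± 0.13 (limma adjusted p = 0.179) among values that were all under the control level. Ogn (osteoglycin) spread widely among KO livers, with 5.32, 6.04, 6.28 and 4.91, against 5.04, 4.48 and 4.76 in WT livers, and KO-94 lay within the WT range (difference 0.88 ± 0.31, limma adjusted p = 0.192). Fmod (fibromodulin) and Ecm2 differed by 0.30 and 0.17 without passing, Ecm2 under the control level throughout and Fmod above it in 2 KO livers.

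Among the 10 genes of fibronectin and matricellular proteins, which are matrix proteins that mainly modulate how cells meet the matrix, 2 rose, 0 fell and 8 did not pass, with a median difference of 0.30. Both that rose are relatives: Sparc, a collagen-binding glycoprotein also called osteonectin, and its homologue Sparcl1, also called hevin. Sparcl1 read 6.75, 7.54, 7.73 and 7.63 in KO livers, against 5.64, 5.20 and 5.36 in WT livers. KO-03 was again the lowest KO liver, and it lay clear of WT-27, the highest WT liver. Sparcl1 averaged 7.41 ± 0.45 in KO livers (SD, n = 4) and 5.40 ± 0.22 in WT livers (SD, n = 3), a difference of 2.01 ± 0.23, or 4.03-fold (limma adjusted p = 0.00297). Sparc read 9.29, 9.57, 9.59 and 10.11 in KO livers, against 8.89, 8.54 and 8.92 in WT livers. Its groups were close, with KO-03 a little above WT-104, and the difference was 0.86 ± 0.19, or 1.82-fold (limma adjusted p = 0.0473).

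Thbs1 and Thbs2, secreted thrombospondins of which Thbs1 is known to activate latent TGF-beta, did not pass. Thbs1 had 4.05, 4.91, 4.60 and 4.96 in KO livers, against 3.72, 3.92 and 4.05 in WT livers, with every array at or under the control level (difference 0.73 ± 0.21, limma adjusted p = 0.117). Thbs2 had 4.53, 4.56, 4.94 and 5.08 in KO livers, against 4.38, 4.24 and 4.37 in WT livers, of which only KO-91 and KO-94 were above that level (difference 0.45 ± 0.16, limma adjusted p = 0.186). In both genes the KO arrays lay above the WT arrays, for Thbs1 with hardly any gap between KO-03 and WT-104. Fibronectin (Fn1), which hepatocytes release into plasma, averaged 12.49 ± 0.19 in KO livers (SD, n = 4) and 12.38 ± 0.22 in WT livers (SD, n = 3), and its difference of 0.10 had a 95% interval of -0.23 to 0.44 (limma adjusted p = 0.795). Its groups overlapped. Postn (periostin), Tnc (tenascin C) and Ecm1 differed by 0.30, 0.28 and 0.30 without passing, with overlap between groups for Postn alone. Tnc was at or under the control level on every array but WT-27. Thbs3 and Thbs4 differed by -0.15 and -0.13, all under the control level. Versican (Vcan), a large chondroitin sulfate proteoglycan, was also under it on all arrays, with a difference of 0.14 ± 0.18 (limma adjusted p = 0.768) and values of 3.34, 3.96, 3.15 and 3.59 in KO livers, against 3.31, 3.46 and 3.33 in WT livers.

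The elastic fibre genes held 3 that rose, 0 that fell and 8 that did not pass among 11 measured of 13 listed, with a median difference of 0.62. Fibulin 5 (Fbln5), which ties tropoelastin to microfibrils and to cell-surface integrins, read 7.27, 8.05, 7.92 and 7.75 in KO livers, against 6.32, 5.90 and 6.54 in WT livers. All KO livers lay well above WT-104, the highest WT liver. It averaged 7.75 ± 0.34 in KO livers (SD, n = 4) and 6.25 ± 0.33 in WT livers (SD, n = 3), a difference of 1.50 ± 0.21, or 2.82-fold (limma adjusted p = 0.00799). Emilin1, a glycoprotein at the interface of elastin and microfibrils, had 8.06, 7.80, 8.24 and 8.93 in KO livers, against 6.88, 6.88 and 6.83 in WT livers. The WT values were nearly equal while the KO values spread, with KO-90 lowest and KO-94 highest, and the difference was 1.40 ± 0.23, or 2.63-fold (limma adjusted p = 0.0153). Mfap4, a microfibril-associated glycoprotein, read 5.88, 6.84, 6.43 and 6.43 in KO livers, against 5.62, 5.37 and 5.35 in WT livers. KO-03 came close to WT-27 without overlap, and the difference was 0.95 ± 0.20, or 1.93-fold (limma adjusted p = 0.0417).

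Elastin itself (Eln), the rubber-like core of the fibre, did not pass. Eln read 6.40, 6.95, 7.03 and 7.75 in KO livers, against 6.11, 6.10 and 6.04 in WT livers, with no overlap and a wide spread among KO livers, KO-94 being highest (difference 0.95 ± 0.26, limma adjusted p = 0.0970). Fibulin 1 (Fbln1), an elastin- and fibronectin-binding glycoprotein, had 6.05, 6.94, 6.02 and 6.86 in KO livers, against 5.64, 5.68 and 5.79 in WT livers (difference 0.76 ± 0.24, limma adjusted p = 0.145). KO-90 and KO-94 were high and KO-03 and KO-91 low, all above the WT livers. Emilin2, Efemp1 and Fbln2 differed by 0.62, 0.56 and 0.24, with overlapping groups. Mfap2, Mfap5 and the fibrillin Fbn2 differed by -0.05, -0.08 and 0.01, and of these Mfap5 and Fbn2 were under the control level on all arrays.

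Of the 4 latent TGF-beta binding proteins, microfibril-associated proteins of which Ltbp1, Ltbp3 and Ltbp4 bind latent TGF-beta and Ltbp2 does not, 1 rose, 0 fell and 3 did not pass, with a median difference of 0.41. Ltbp3 read 6.04, 5.84, 6.34 and 6.11 in KO livers, against 5.59, 5.18 and 5.23 in WT livers. No values overlapped, and WT-27 stood above the other WT livers. The difference of Ltbp3 was 0.75 ± 0.15, or 1.68-fold (limma adjusted p = 0.0339). Ltbp1 had 3.79, 4.52, 3.76 and 4.08 in KO livers, against 3.57, 3.27 and 3.72 in WT livers, under the control level on all arrays (difference 0.52 ± 0.20, limma adjusted p = 0.234). Ltbp4 had 7.07, 6.97, 6.83 and 6.95 in KO livers, against 6.81, 6.38 and 6.77 in WT livers (difference 0.30 ± 0.13, limma adjusted p = 0.312). Both had every KO array above the WT arrays, each by a narrow gap. Ltbp2 differed by 0.30, with KO-94 alone above the other livers and every array under the control level.

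Lysyl oxidases oxidise lysines of collagen and elastin so that cross-links form. Of 4 measured of 5 listed, 1 rose, 0 fell and 3 did not pass, with a median difference of 0.51. Loxl1, the family member tied to elastic fibres and a binding partner of fibulin 5, read 5.75, 7.27, 6.90 and 6.91 in KO livers, against 4.47, 4.52 and 5.07 in WT livers. All KO livers were above the control level and all WT livers at or under it, so the WT value is a bound. Against the higher of each WT array's own value and its floor, the KO mean was at least 1.81 higher on the log2 scale. The fitted difference was 2.03 ± 0.33 (limma adjusted p = 0.0140). Lox had 4.29, 5.01, 4.78 and 5.34 in KO livers, against 4.36, 4.35 and 4.35 in WT livers, with KO-03 under the WT livers and only KO-94 above the control level (difference 0.50 ± 0.22, limma adjusted p = 0.294). Loxl4 had 5.71, 6.55, 5.75 and 7.45 in KO livers, against 5.76, 5.80 and 5.97 in WT livers (difference 0.52 ± 0.38, limma adjusted p = 0.558). KO-90 and KO-94 were high for Loxl4, and KO-03 and KO-91 lay just under the WT livers. Loxl3 differed by 0.18 with overlapping groups.

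Among the 9 basement membrane genes, 3 rose, 0 fell and 6 did not pass, with a median difference of 0.35. Nidogen 1 (Nid1), which links laminin to type IV collagen, read 7.63, 7.62, 7.82 and 7.80 in KO livers, against 7.19, 6.78 and 6.95 in WT livers. The KO livers lay close together and clear of the WT livers, with a difference of 0.75 ± 0.13, or 1.68-fold (limma adjusted p = 0.0170). Lama2, the laminin alpha 2 chain, had 6.18, 6.88, 6.69 and 6.81 in KO livers, against 5.97, 5.77 and 5.62 in WT livers. KO-03 lay nearest to the WT livers, and the difference was 0.85 ± 0.18, or 1.81-fold (limma adjusted p = 0.0377). Lamb1, the laminin beta 1 chain, had 6.21, 6.22, 6.69 and 6.89 in KO livers, against 5.55, 5.69 and 5.78 in WT livers. KO-91 and KO-94 were higher than KO-03 and KO-90, all above the WT livers, and the difference was 0.83 ± 0.18, or 1.78-fold (limma adjusted p = 0.0444). Lamc1, the gamma 1 chain found in most laminins, read 5.94, 6.08, 6.04 and 6.41 in KO livers, against 5.71, 5.25 and 5.88 in WT livers, close but without overlap (difference 0.51 ± 0.17, limma adjusted p = 0.182). Lamb2 had 4.50, 4.30, 4.64 and 4.62 in KO livers, against 4.41, 4.02 and 4.09 in WT livers, all under the control level and with KO-90 below WT-27 (difference 0.35 ± 0.14, limma adjusted p = 0.252). In the other basement membrane genes the groups overlapped as well. Nid2, the second nidogen, differed by -0.38 (95% interval -0.89 to 0.13, limma adjusted p = 0.464). Lama4 differed by 0.14, Lama5 by -0.10 (95% interval -0.38 to 0.17) and perlecan (Hspg2), the heparan sulfate proteoglycan of basement membranes, by -0.09 (95% interval -0.37 to 0.20).

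**Figure D2:**
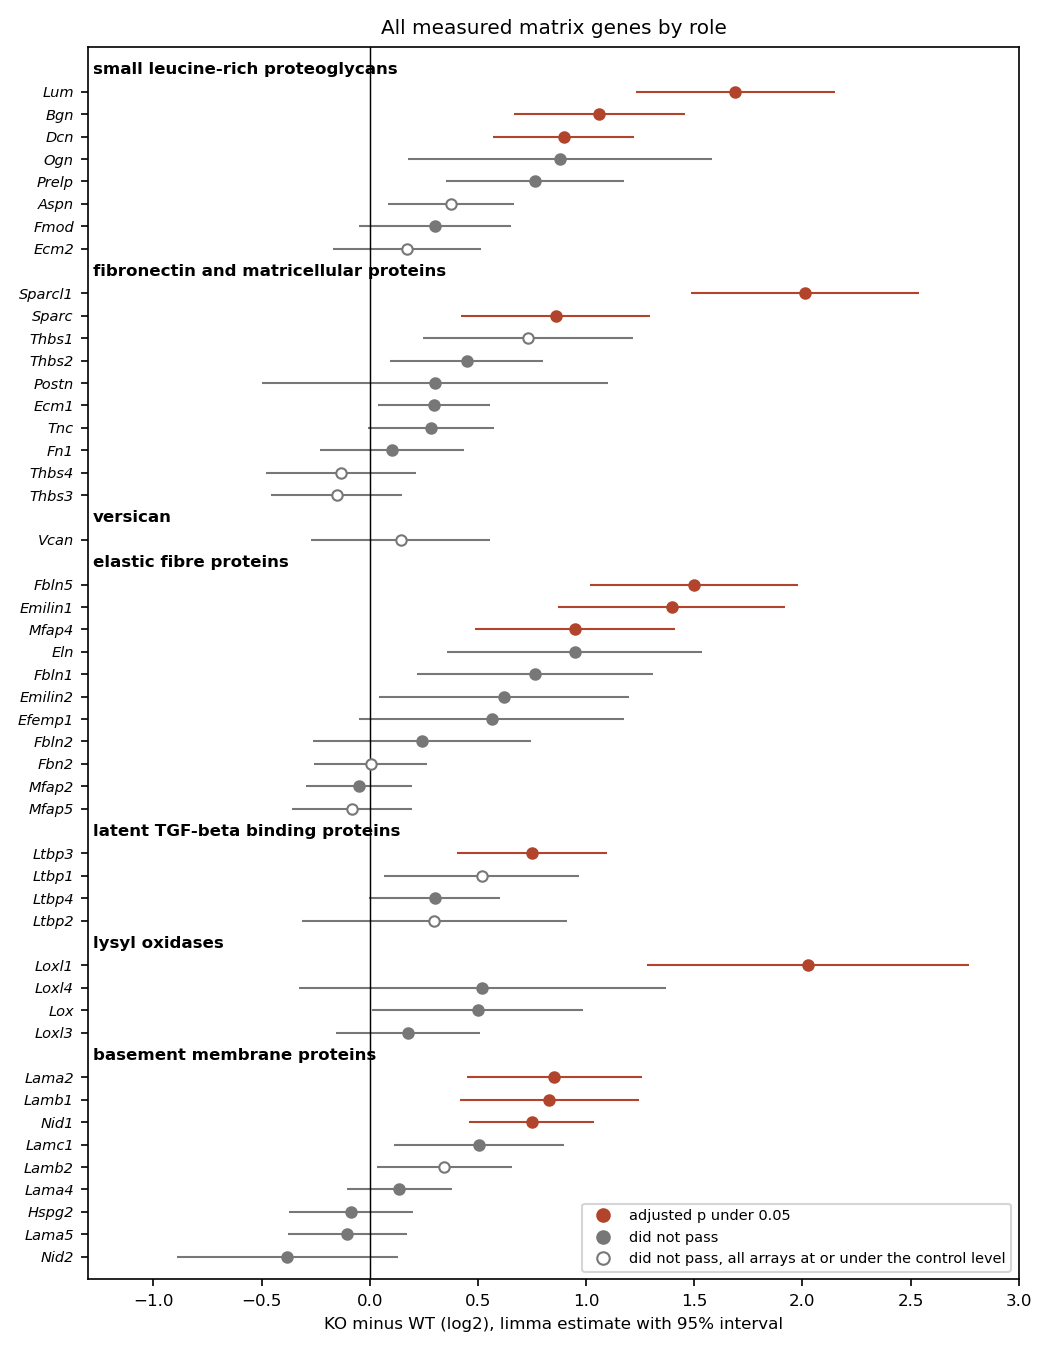
Differences between KO and WT livers (KO minus WT, log2, limma estimate with 95% interval) of the 47 measured matrix genes by role, red where the adjusted p was under 0.05 and open where all 7 arrays were at or under the control level. Every role but versican holds at least 1 gene that rose, and the 7 negative differences all have intervals that include 0.

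Beyond the 13 that rose, the KO arrays of 11 further genes all lay above the WT arrays without passing. They were Prelp, Aspn, Tnc, Thbs1, Thbs2, Ecm1, Eln, Fbln1, Ltbp1, Ltbp4 and Lamc1. Of these, Aspn, Thbs1 and Ltbp1 were at or under the control level on all arrays, Tnc on all but WT-27 and Thbs2 on all but KO-91 and KO-94. Without the adjustment over all genes, 26 of the 47 members had a limma p under 0.05 with KO above WT, beside 10.2% of all genes, and 0 with KO below WT, beside 6.23% of all genes.

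KO-03 was the lowest KO liver for most of the genes that rose, and the other KO livers kept no common order. Averaged over the 13, the log2 level was 7.72, 8.17, 8.21 and 8.37 in KO livers, against 6.97, 6.80 and 6.99 in WT livers. KO-03 was lowest for 10 of the 13 and KO-90 for 3, while KO-94 was highest for 6, KO-90 for 4 and KO-91 for 3. Over all 470 genes that rose, KO-03 was lowest for 64.7% and KO-94 highest for 49.8%.

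Lum, Sparcl1 and Fbln5 kept an adjusted p under 0.05 whichever of the 7 arrays was left out, with highest values of 0.0259, 0.0241 and 0.0421 in the limma fits. The other 10 lost it in some of these fits, and all 13 kept a positive difference. Bgn reached 0.0539 without WT-27 and 0.0806 without WT-103, and Dcn 0.0590 and 0.0732 without the same arrays. Loxl1 reached 0.0588 without WT-27 and 0.0778 without WT-103. Emilin1 reached 0.0559 without WT-27, 0.0753 without WT-103 and 0.0596 without WT-104, and Nid1 reached 0.0618 without KO-91, 0.0858 without WT-103 and 0.0661 without WT-104. Ltbp3 reached 0.0921 without KO-91, 0.0689 without KO-94, 0.159 without WT-103 and 0.117 without WT-104. Sparc, Mfap4, Lama2 and Lamb1 kept the call without KO-03 and lost it without any other array. Over those 6 fits the limma adjusted p ran between 0.0534 and 0.201 for Sparc, 0.0762 and 0.170 for Mfap4, 0.0747 and 0.148 for Lama2, and 0.0555 and 0.160 for Lamb1, each highest without WT-103. The number of members that rose was 17 without KO-03, 9 without KO-90, 7 without KO-91 and 8 without KO-94. It was 5 without WT-27, 3 without WT-103 and 6 without WT-104, and 0 members fell in each of these fits. The number of all genes that rose moved alongside, between 132 without WT-103 and 892 without KO-03.

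**Figure D3:**
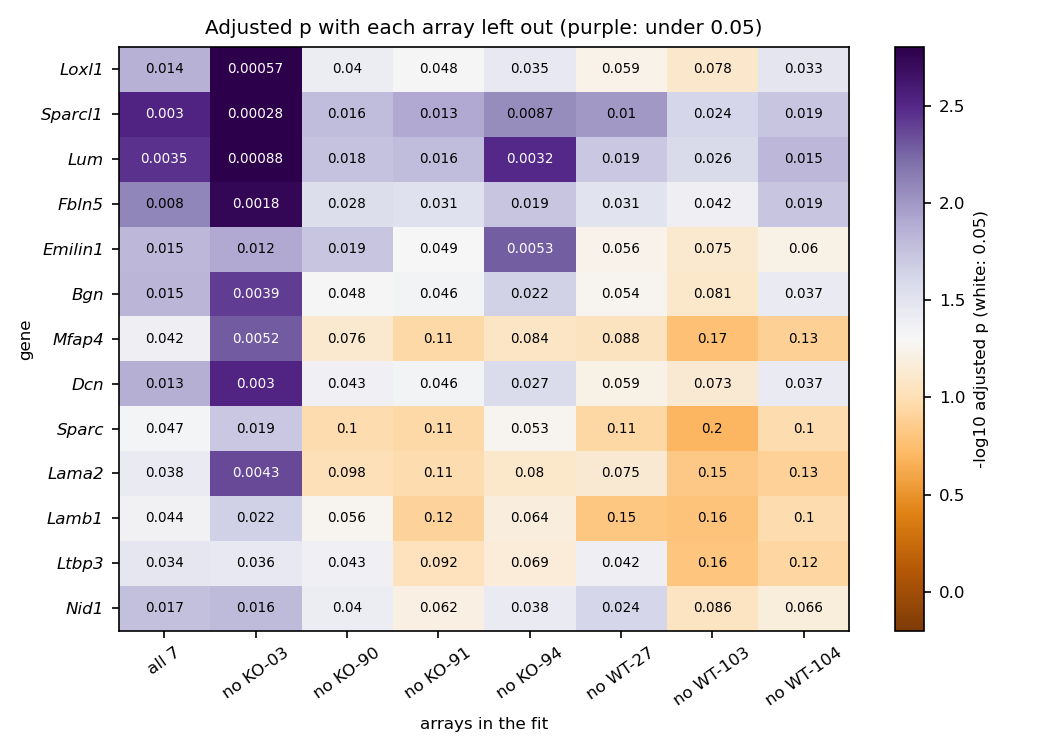
Limma adjusted p of the 13 matrix genes that rose, with all 7 arrays and with each KO or WT array left out in turn. Purple cells are under 0.05 and orange cells are above it, and the rows of Sparcl1, Lum and Fbln5 are under 0.05 in every column.

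A gene was read through its brightest probe set, judged by the mean of all 7 arrays, and its other probe sets give a further reading. The 47 members had 101 probe sets, and 54 were others than the one used, of which 32 were at or under the control level on all arrays. Of 10 others above it on all arrays, 8 had the sign of the one used. The 2 of opposite sign were those of Hspg2, with 0.30 where the one used had -0.09, and Mfap2, with 0.24 where the one used had -0.05. Above it on some arrays only, 1 probe set each of Fn1 (-1.65), Fbln1 (-0.09) and Lama5 (0.17) had the opposite sign. So did probe sets at or under it throughout of Ecm2, Fbln2, Fbln5, Fbn2, Lama5, Lamc1, Ltbp1, Nid1, Thbs2, Tnc and Vcan. Among the genes that rose, 6 other probe sets were above the control level on all arrays, and all 6 were higher in KO livers. Both further Bgn probe sets passed, with differences of 0.93 and 1.07, as did a second for Sparc at 0.93. Further probe sets of Lamb1 at 0.70 and Ltbp3 at 0.79 passed too, though with all WT livers at or under the control level. A second probe set for Nid1 at 0.79, a second for Emilin1 at 0.69 and a further one for Sparc at 0.16 did not pass. Nor did another for Lamb1 at 0.41, above the control level in 3 KO livers and 1 WT liver (limma adjusted p = 0.228 over all probe sets). When every probe set was tested on its own, those used for Sparc, Lamb1 and Mfap4 had limma adjusted p of 0.0615, 0.0577 and 0.0538. The second probe set of Loxl1, above the control level in only 1 KO and 1 WT liver, differed by 0.03. It has the higher WT mean, and reading the gene through it ended the call (limma adjusted p = 0.933). Lamb1 did not pass when its probe sets were averaged (limma adjusted p = 0.0915) or when probe sets whose names mark possible cross-reaction or shared transcripts were left out (limma adjusted p = 0.199).

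**Figure D4:**
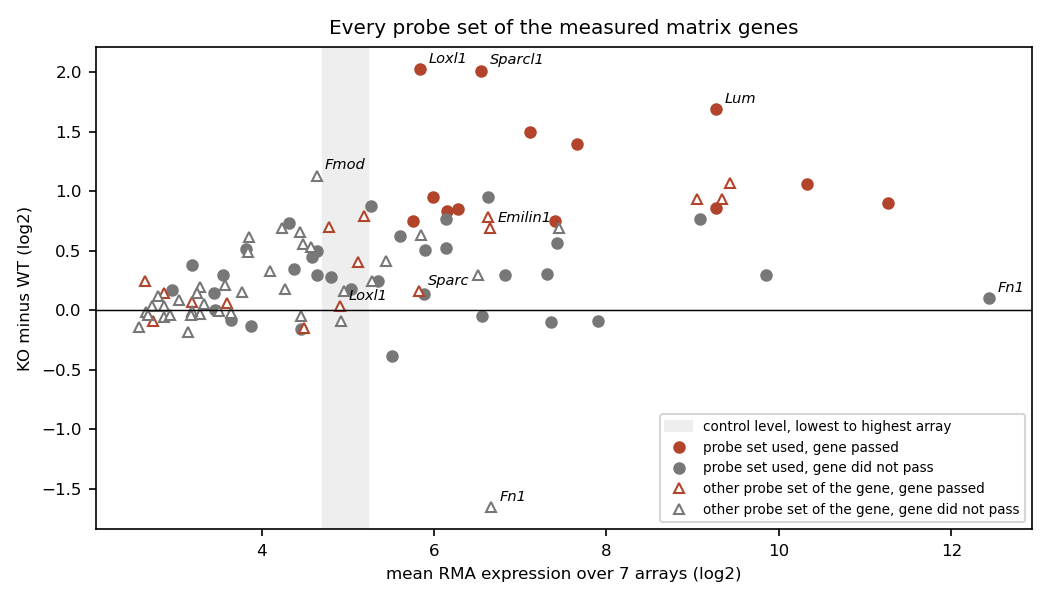
Difference between KO and WT livers (KO minus WT, log2) of all 101 probe sets of the 47 measured matrix genes against their mean RMA expression (log2, 7 arrays), with circles for the probe set used and triangles for the others, red for genes that passed. The grey band is the control level between 4.71 and 5.23, and differences near 0 are common under it.

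Other matrix genes outside the set were read from wider lists, beside the 2.58% of all genes that rose and the 0.951% that fell. Of 52 other measured glycoproteins and proteoglycans, 6 rose and 0 fell, with a median difference of 0.16, and 25 of the 52 were at or under the control level on all arrays. Those that rose were Mgp, a matrix inhibitor of calcification, with 2.41 ± 0.27 (limma adjusted p = 0.00270), Smoc2, Mfge8, Dpt, Igfbp7 and Tgfbi. Of 17 collagens, 7 rose and 0 fell, with a median difference of 0.79: Col1a1, Col1a2, Col3a1, Col5a2, Col6a1, Col6a2 and Col6a3. Col1a1, a chain of the main fibrillar collagen that lumican and decorin bind, differed by 2.13 ± 0.27 (limma adjusted p = 0.00502), and Col6a3 by 1.46 ± 0.13 (limma adjusted p = 0.00105). Among 6 other laminin chains and netrins, Ntn1 rose and 0 fell, with a median difference of 0.07.

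Markers of the cells that a liver can hold were read beside these results. Over all genes 2.58% rose and 0.951% fell, so 0 on a list of 7 to 12 markers is near those shares. Of 15 stellate cell markers 4 rose (Hand2, Pdgfrb, Pdgfra and Cygb), with a median difference of 0.34 and a list mean of 6.96 to 7.24 in KO livers, against 6.54 to 6.67 in WT livers, and 0 of the 15 were at or under the control level on all arrays. Lrat, the enzyme by which stellate cells store retinol, differed by -0.13 ± 0.23 (limma adjusted p = 0.847). Of 10 portal fibroblast markers 3 rose (Gas6, Dpt and Mgp), with a median of 0.59 and a mean of 5.68 to 6.42 in KO livers, against 5.06 to 5.13 in WT livers, and Gli1, Pi16 and Clec3b were at or under the control level throughout. Dpt and Mgp stand on the list of other glycoproteins as well. Of 7 cholangiocyte markers 4 rose (Krt19, Epcam, Tspan8 and Cd24a), with a median of 1.39. The mean of this list was 5.16 to 6.28 in KO livers, against 4.19 to 4.46 in WT livers, while Krt7 and Cftr were at or under the control level. On these 3 lists the mean of every KO liver lay above that of every WT liver, with KO-03 the lowest KO liver, while 11 stellate cell, 7 portal fibroblast and 3 cholangiocyte markers did not pass. Of 8 myofibroblast and smooth muscle markers 0 rose, with a mean of 6.06 to 6.46 in KO livers, against 5.95 to 6.24 in WT livers, and Cnn1, Actg2 and Myh11 were at or under the control level. Acta2, the actin of activated myofibroblasts, differed by 0.29 ± 0.19 (limma adjusted p = 0.517). Sinusoidal endothelial markers had 0 of 12 that rose and a mean of 7.69 to 7.78 in KO livers, against 7.71 to 7.72 in WT livers. Macrophage markers had 0 of 9 that rose and a mean of 8.45 to 8.89 in KO livers, against 8.08 to 8.61 in WT livers. Mesothelial markers had 0 of 7 that rose and a mean of 4.12 to 4.43 in KO livers, against 3.91 to 4.13 in WT livers, with Msln, Wt1, Lrrn4 and Krt14 at or under the control level. The 10 hepatocyte markers, which check the label of the tissue, averaged 13.39 to 13.51 in KO livers, against 13.24 to 13.29 in WT livers, far above the control level. There too every KO mean lay above every WT mean, and 0 of the 10 markers passed. No marker on any of these lists fell, and the part of any cell type in the matrix result was not tested.

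**Figure D5:**
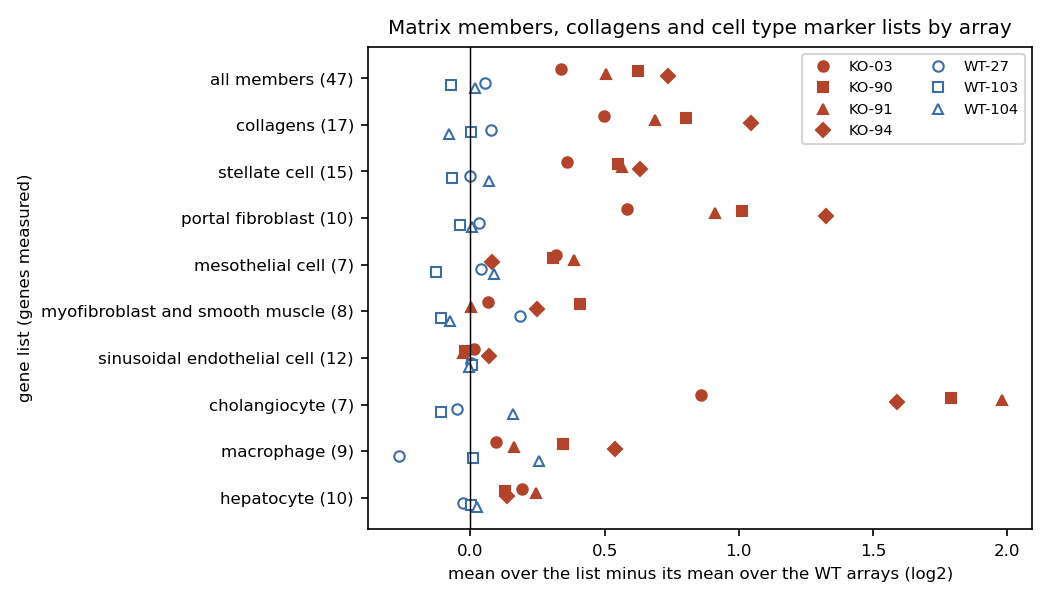
Mean over each list minus the mean of the same list over the WT arrays (log2), by array, for the 47 members, the collagens and 8 lists of cell type markers, with filled symbols for KO livers and open symbols for WT livers. All KO livers lie to the right of all WT livers for the members, the collagens and the stellate cell, portal fibroblast, cholangiocyte and hepatocyte lists, and KO and WT livers overlap for the mesothelial, smooth muscle, endothelial and macrophage lists.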

How the data were processed

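Biotin-labelled cRNA made from total RNA of frozen livers was read on Affymetrix arrays, per the labels' protocols. The authors deposited log2 expression values, which they had computed by robust multi-array analysis (RMA) with software from Partek, per the submitters' processing notes. RMA adjusts for background, forces every array onto 1 distribution and summarises the probes of a set, so a shift shared by most genes is removed. Software versions and a build are not given in the sources. Arrays yield no counts, and depth does not apply.

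Of 45101 probe sets, 64 were controls, and platform annotation gave 1 symbol for 34945, several for 932 and none for 9160. Each of 18193 genes was read through its brightest single-symbol probe set by the mean of all 7 arrays, which leans toward probe sets that are higher in KO livers. Genotypes came from the sample titles. KO was set against WT by two-sided moderated tests without covariates in limma 3.58.1 under R 4.3.3, with 5 residual and 3.99 prior degrees of freedom. The p-values were adjusted across all genes by the method of Benjamini and Hochberg, and 0.05 was the threshold. In 10 simulated comparisons with 200 changed genes, the fit recovered 70.4% of changes of 1 and 95.2% of changes of 2 on the log2 scale, and 4.44% of its calls were false. The simulated noise was drawn separately for each gene and array, without effects that genes share on an array. These rates hold for such noise and need not hold for the arrays used here. The floor of an array was the highest of its 27 bacterial control probe sets, so a value under it may still hold signal.

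The members and lists were chosen with earlier results of these data known, and no list was given a test of its own. The genes given on every array were those that passed and, in each role, the 2 others with the smallest p. Other genes named for their probe sets or spread were chosen after their values were seen. The alternatives covered the prior variance, array weights, normalization, dim genes, choice of probe set, threshold and each array left out. Promoter windows were copied from a RefSeq table of GRCm38.p6, which held 8 of the 13 genes that rose. Figures were drawn with matplotlib 3.10.9 in Python 3.11.15.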

Additional observations from a re-analysis of the deposited data

Results flagged for a closer look

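The highest or lowest of the 4 KO arrays was checked for a wide gap to the others in each of the 47 measured matrix genes, with Dixon's ratio of gap to range at its 95% critical value. Chance gives about 1 such gap in 20 groups, and 3 were found. Fn1 was highest in KO-94, at 12.77, with a gap of 0.876 of the range of the KO livers. Ltbp2 was highest in KO-94, at 4.51, with a gap of 0.924 of the range, though every value of Ltbp2 was under the control level. Lama4 was lowest in KO-90, at 5.83, with a gap of 0.843 of the range. None of the 3 genes passed the test between KO and WT livers.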

How the results depend on the processing

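The limma counts of members that rose stayed within 1.5 times the main 13 under the other priors, array weights, normalizations, filters and probe set choices, and 0 members fell under each alternative. A threshold of 0.01 on the adjusted p left 3 (with 141 of all genes higher and 31 lower), and a difference of at least 1 on the log2 scale left 6 (258 higher and 66 lower). With single arrays left out, the members that rose numbered 3 to 17, the genes higher 132 to 892, the genes lower 37 to 252 and the member median 0.37 to 0.53. Array weights gave 909 genes higher and 344 lower. Centring each array on its median gave 288 lower, moved the median of all genes to -0.10 and that of the members to 0.39, and ended the calls of Mfap4 (limma adjusted p = 0.0503) and Ltbp3 (0.0695). Either filter on dim genes raised the member median to 0.77, with fewer members tested. The filter at a group mean of 6 kept a gene when either group reached it. Some members entered through the KO mean alone, such as Loxl1 (6.71 in KO livers, 4.68 in WT livers) and Mfap4 (6.39 and 5.45). The count and median under that filter thus lean toward genes higher in KO livers and are no independent check. An alternative chosen after seeing the data, without KO-03 and WT-104 together, gave 724 genes and 15 members higher and ended the call of Ltbp3 (limma adjusted p = 0.0936). Ogn, Prelp, Thbs1, Eln and Lox passed under some alternatives only.

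Differences changed sign in 17 of 898 pairs of member and alternative, 0 of them among the 13 genes that rose, and the cause was not tested. With all probe sets averaged, Fn1 became -0.77, Fbn2 -0.013, Mfap2 0.096, Lama5 0.072 and Hspg2 0.11. With the probe set highest in WT livers, Ecm2 became -0.052 and Ltbp1 -0.022, and Mfap2 became 0.24 without probe sets that may cross-react. Under median centring Fn1 became -0.0090 and Fbn2 -0.11, and under array weights Vcan became -0.0098. With single arrays left out, Fn1 ran between -0.019 (without WT-104) and 0.17, Vcan between -0.0066 (without KO-90) and 0.26, Thbs4 between -0.27 and 0.044 (without WT-103), and Fbn2 between -0.072 (without WT-103) and 0.059, with -0.037 without KO-94. Postn became -0.10 without KO-03 and WT-104 together. Signal near the control level limits the 11 members at or under it on all arrays and the 8 at or under it on some arrays that did not pass. No paired analysis was possible because the animals' numbers do not recur between KO and WT.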

Other observations

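These readings were picked after their values were seen. The second probe set of Fn1 gave another picture than the one used. It read 8.04, 4.81, 5.52 and 5.46 in KO livers, against 8.80, 7.79 and 6.24 in WT livers, a difference of -1.65 ± 0.79 (limma adjusted p = 0.378 over all probe sets), with KO-03 alone among the KO livers inside the WT range. Fibronectin transcripts are spliced in several ways, and what this probe set reads was not analysed here.

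Fibromodulin (Fmod) had 6 probe sets, all with positive differences between 0.19 and 1.13 and 0 passing. The one with the largest difference read 5.76, 4.64, 5.83 and 4.25 in KO livers, against 4.41, 3.67 and 3.90 in WT livers. Here KO-03 and KO-91 were high, where most genes that rose had KO-03 lowest, and only these 2 livers were above the control level. Efemp1, a fibulin of elastic tissue, was likewise highest in KO-03, at 8.20, with the other KO livers at 7.19, 7.72 and 7.55, against 7.58, 6.62 and 7.10 in WT livers, and it did not pass (limma adjusted p = 0.346).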
